A study of Mus musculus with 20 samples.

Results

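Cells pretreated with dimethyl itaconate (DI) were compared with untreated cells (Ctrl) 4 h after stimulation, over all genes of the count table. The comparison takes the libraries whose labels give 4 h: 2 of DI and 2 of Ctrl, or 4 of the 20 libraries of the series, with 22165 genes in the table, of which 10663 had enough reads to be tested. All the cells were bone marrow-derived macrophages of wild-type (WT) C57BL/6 mice, grown for 7 days in RPMI with macrophage colony-stimulating factor (m-CSF) and then given lipopolysaccharide (LPS) and interferon gamma (IFNg). The DI cells, whose treatment the labels spell Demethyl Itaconate, had also received 250 µM DI for 12 h before the stimulus, and the Ctrl cells had not. The other 16 libraries were sampled at 0, 1, 2 and 6 h in the same 2 arms and are used here to set the spread between replicates, to define induction classes and to test where the effect of DI at 4 h differed from that at another time. No source used here says that 2 replicates came from separate mice or cultures, so a p-value measures the spread between these libraries only.

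LPS, part of the outer membrane of bacteria, is sensed by TLR4, which signals to NF-kB, AP-1 and interferon regulatory factors, and IFNg acts through JAK kinases. In macrophages the first genes switched on need no new protein, and a later wave, which includes many cytokines and interferon-stimulated genes, depends on factors made in the first, among them the nuclear inhibitor-like protein IkBz (Nfkbiz). DI is an electrophilic ester of itaconate, a metabolite that activated macrophages make with the enzyme encoded by Acod1. Electrophiles can modify KEAP1, the adaptor that marks the transcription factor NRF2 for destruction, after which NRF2 raises genes of glutathione synthesis, NADPH supply and detoxification.

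The 4 libraries held 4726287 and 4341357 counts in DI and 4549800 and 6022092 in Ctrl. DI libraries had more genes without a read, 11617 and 12328 against 10550 and 10344 in Ctrl libraries. Each molecule appeared to have been read more often, by an estimate of 6.83 and 10.5 reads per molecule in DI and 2.96 and 3.37 in Ctrl. Genes that are off in a group also raise this estimate, and their part in it was not tested. DI replicate 2 stood apart: on the fourth principal component of all 20 libraries it lay at -86.0, against 1.06 for DI replicate 1 and 0.935 and 3.39 for the Ctrl libraries. The median coefficient of variation between the 2 replicates was 17.6% in DI and 10.7% in Ctrl. A count of 3 reads corresponded to 0.732 and 0.795 counts per 1000000 counts (CPM) in the DI libraries and 0.834 and 0.679 CPM in the Ctrl libraries, which is taken as the floor of detection and covers counting error only. Since no molecular identifiers were counted, reads of a weakly expressed gene are not independent molecules, and values near the floor rest on few molecules.

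At 4 h 1006 genes passed an adjusted p of 0.05 in edgeR's quasi-likelihood test with Benjamini-Hochberg adjustment, which is 9.43% of the genes tested. Of these 366 were higher in DI (3.43% of the genes tested) and 640 lower (6.0%). Changes to lower levels reached further: 122 genes fell by at least 3 on the log2 scale and 33 rose by as much. Here a rise or fall is of DI against Ctrl at 4 h and not over time. Of the called genes 43 had no read in either DI library and 4 none in either Ctrl library, and their fitted fold changes are not bounds. The 4 libraries did not overlap between groups for 53.4% of all genes tested, so a lack of overlap is common with 2 libraries a group and is read here only beside the test. Scaling on well expressed genes only, those of at least 32 CPM, shifted all log2 fold changes by a median of 0.11 and gave 477 genes higher and 522 lower, so the excess of falls over rises depends in part on the scaling. Without DI replicate 2 the count was 543 genes, of which 475 were among the 1006, and without Ctrl replicate 1 or Ctrl replicate 2 it was 476 or 421. A gene named as called between DI and Ctrl at 4 h kept that call with any 1 of the 4 libraries left out, unless said otherwise. In a bulk sample, fewer cells of a type and less RNA per cell cannot be told apart.

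**Figure D1:**
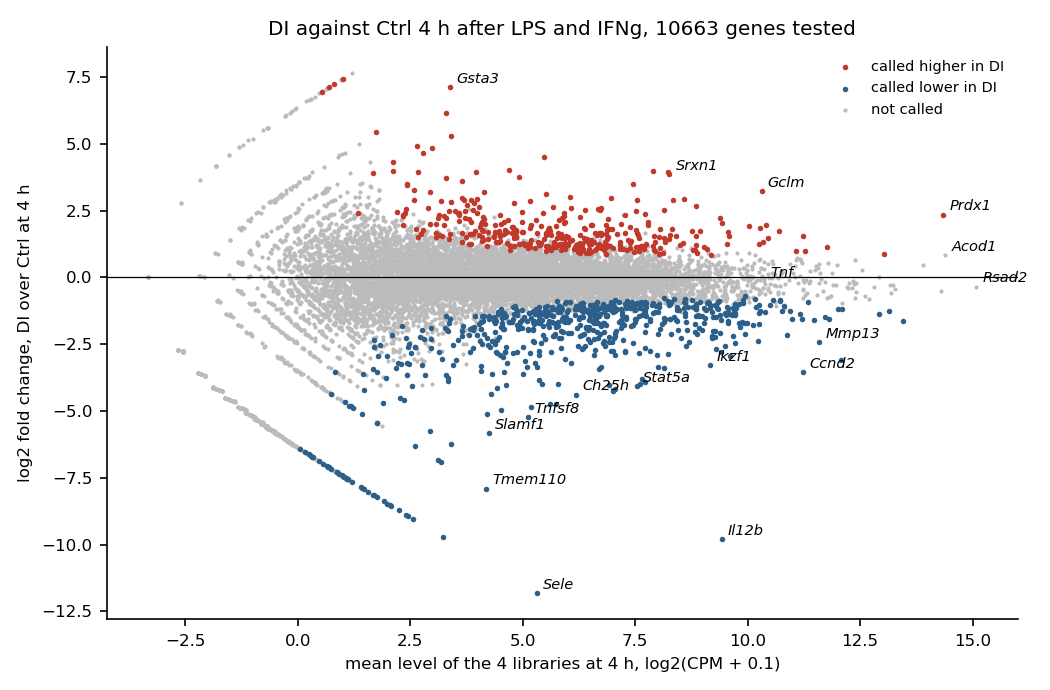
Log2 fold change of DI over Ctrl at 4 h (y axis) against the mean level of the 4 libraries (x axis, log2 of CPM + 0.1) for the 10663 genes tested, with the 366 genes called higher in DI in red, the 640 called lower in blue and the others in grey. The straight bands at the left are genes with no or very few reads in 1 group, whose fitted fold change depends on a small constant added to the counts. Il12b, at 0.976 and 2.12 CPM in DI and 1459.7 and 1287 CPM in Ctrl, lies lowest among the well expressed genes, and Acod1, Rsad2 and Tnf are grey.

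Several genes of glutathione synthesis were among the 15 largest rises. Gclc encodes the catalytic subunit of glutamate-cysteine ligase, the rate-limiting enzyme of glutathione synthesis, and lies on chromosome 9 at 77754535 to 77794485 (GRCm38). It had 464 and 428 CPM in the DI libraries, against 24.5 and 32.6 CPM in the Ctrl libraries, a log2 fold change of 3.96 ± 0.34 (SE; adjusted p = 4.58e-08, edgeR). Its partner Gclm, the modifier subunit, had 2077 and 2504 CPM in DI and 247 and 239.8 CPM in Ctrl, a log2 fold change of 3.23 ± 0.31 (SE). Gss, which adds glycine in the last step, had 27.3 and 18.8 CPM in DI and 1.67 and 2.04 CPM in Ctrl. Both DI libraries lay several-fold above both Ctrl libraries for each of the 3 biosynthetic genes, where the choice of the largest changes required that the groups not overlap. Slc7a11, the cystine importer that feeds the pathway, had 305 and 346 CPM in DI and 43.6 and 44.6 CPM in Ctrl. Gsr, which regenerates reduced glutathione, had 884 and 717 CPM in DI and 119.8 and 134 CPM in Ctrl. Gsta3, a glutathione transferase, had 162 reads over the DI libraries and 1 read over the Ctrl libraries, a DI over Ctrl ratio of 165 after scaling to library size (95% exact interval 29.2 to 6555, counting error only). Over the list of glutathione synthesis and conjugation, 10 of 20 tested members rose and 1 fell, and 9 or 10 rose with any 1 library left out. The list had a median log2 fold change of 1.76, beside a median of -0.06 over all genes tested. Of all genes tested 3.43% were called higher and 6.0% lower. Glrx, a glutaredoxin that uses glutathione to reduce protein disulfides, was the member that fell (64.6 and 58.1 CPM in DI and 173 and 166 CPM in Ctrl), a call that was lost without either Ctrl library or DI replicate 2 (largest adjusted p = 0.109, edgeR).

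The thioredoxin system moved in part. Srxn1, which repairs over-oxidised peroxiredoxins, had 502 and 642 CPM in DI and 35.6 and 42.6 CPM in Ctrl, a log2 fold change of 3.87 ± 0.30 (SE; adjusted p = 9.92e-09, edgeR). Prdx1, a cytosolic peroxiredoxin, had 41215 and 28443 CPM in DI and 6243 and 7441 CPM in Ctrl. Reads of its processed copies elsewhere in the genome could have been split or dropped by the authors' counting. Catalase (Cat) had 399 and 300.1 CPM in DI and 73.9 and 62.7 CPM in Ctrl. Of 15 members tested 5 rose and none fell (median 0.34), beside 3.43% called higher and 6.0% lower over all genes tested. Txnrd1, thioredoxin reductase, was called with 1106 and 1179 CPM in DI and 467 and 308 CPM in Ctrl. Prdx6, a further peroxiredoxin, was called with 119.5 and 111 CPM in DI and 68.9 and 54.3 CPM in Ctrl. Both calls were lost whichever of the 4 libraries was left out, and 3 of 15 passed in each case. Txn1 itself had 799.7 and 592 CPM in DI and 864 and 941 CPM in Ctrl and did not pass the test (adjusted p = 0.413, edgeR).

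Promoters of 2 of these genes are shown because they carry letters of the antioxidant response element (ARE), which NRF2 binds, or of the related AP-1 motif. The sequences are from RefSeq (GRCm38.p6), the 250 bases before the annotated start, written in the direction of transcription. Capitals mark the ARE letters TGACNNNGC in Gclm (chr3:122245307-122245556, plus strand), here read on the opposite strand 134 bases before the start, and the AP-1 letters TGANTCA in Srxn1 (chr2:152105274-152105523, plus strand), which occur 2 times before the start, the first at 102 bases.
Gclm: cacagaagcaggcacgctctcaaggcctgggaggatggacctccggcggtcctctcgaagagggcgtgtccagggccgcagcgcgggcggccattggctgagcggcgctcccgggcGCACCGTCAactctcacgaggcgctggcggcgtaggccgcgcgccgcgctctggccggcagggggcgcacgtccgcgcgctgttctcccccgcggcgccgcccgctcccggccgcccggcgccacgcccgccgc
Srxn1: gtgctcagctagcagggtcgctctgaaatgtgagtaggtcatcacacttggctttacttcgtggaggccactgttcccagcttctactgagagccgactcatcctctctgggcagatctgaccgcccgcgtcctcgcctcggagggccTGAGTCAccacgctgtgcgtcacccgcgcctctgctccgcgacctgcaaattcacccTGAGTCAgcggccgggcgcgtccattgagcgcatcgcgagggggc
Srxn1 also holds the ARE letters 1 time in the first transcribed bases, which are not shown. Among the 15 largest rises 11 had a promoter in the RefSeq table and 4 of these held the ARE letters on either strand within 300 bases (Srxn1, Gclm, Gsta3 and Acss2), and among the 15 largest falls none of 10 did. Over all calls the shares lay closer together, at 18.1% of 299 promoters of genes called higher and 14.3% of 511 of genes called lower, beside 15.02% of the 8484 promoters of all tested genes. Letters in a window are a description and show no binding.

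Genes of heme breakdown and iron handling were higher where they changed. Hmox1, which degrades heme, had 134 and 102 CPM in DI and 14.7 and 14.3 CPM in Ctrl, a log2 fold change of 3.02 ± 0.34 (SE; adjusted p = 1.32e-06, edgeR). Slc40a1 (ferroportin), the iron exporter, had 306 and 338 CPM in DI and 34.5 and 22.9 CPM in Ctrl. Slc48a1, which carries heme out of the lysosome, had 139 and 154 CPM in DI and 35.8 and 39.4 CPM in Ctrl. In this list 7 of 12 tested members rose and none fell, beside 3.43% called higher and 6.0% lower over all genes tested. The median was 1.19 over the 12. Ftl1, the ferritin light chain, was among the 7, but the call was lost without Ctrl replicate 1 or DI replicate 1 (largest adjusted p = 0.112, edgeR), and ferritin genes have near-identical copies. The pirin gene Pir and the biliverdin reductase gene Blvrb were called as well, with log2 fold changes of 2.83 ± 0.68 and 1.26 ± 0.33 (SE), but Pir lost the call without Ctrl replicate 2 and Blvrb without either Ctrl library or DI replicate 1 (largest adjusted p = 0.164 and 0.138, edgeR). Without Ctrl replicate 1 or Ctrl replicate 2, 4 of the 12 passed.

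Enzymes that supply NADPH and remove reactive carbonyls were also higher where they changed, beside 3.43% called higher and 6.0% lower over all genes tested. Pgd, which yields NADPH in the pentose phosphate pathway, had 567 and 427 CPM in DI and 143 and 137 CPM in Ctrl. Taldo1, the transaldolase of that pathway, had 716 and 795 CPM in DI and 190.1 and 268 CPM in Ctrl. Of 11 tested members 5 rose and none fell (median 1.12), while without Ctrl replicate 2 or DI replicate 2 the count was 2 of 11 and without Ctrl replicate 1 it was 3. Nqo1, a quinone reductase and a standard NRF2 target, had 33.2 and 25.2 CPM in DI and 2.22 and 1.59 CPM in Ctrl. Ptgr1, a reductase of unsaturated carbonyls, had 210.3 and 229 CPM in DI and 32 and 24.7 CPM in Ctrl. Of the quinone and carbonyl list 6 of 15 rose and none fell (median 0.59). The others were Esd, Cbr3, Akr1b8 and Akr1a1, of which Akr1b8 lost its call without Ctrl replicate 2 and Akr1a1 without Ctrl replicate 1 or DI replicate 1 (largest adjusted p = 0.0732 and 0.0638, edgeR). Among NRF2 and its regulators, Mafg, the small partner protein with which NRF2 binds DNA, had 494 and 460.2 CPM in DI and 76.4 and 88.3 CPM in Ctrl, a log2 fold change of 2.53 ± 0.28 (SE; adjusted p = 9.44e-07, edgeR). Nfe2l2, which encodes NRF2, had 446 and 443 CPM in DI and 169.5 and 155 CPM in Ctrl and its call was lost without Ctrl replicate 1 or Ctrl replicate 2 (largest adjusted p = 0.11, edgeR). Keap1 did not pass the test, at 241 and 228 CPM in DI and 244 and 264 CPM in Ctrl. Sqstm1, an autophagy receptor that binds KEAP1, was called at 2829 and 2239 CPM in DI and 876 and 649.9 CPM in Ctrl, but not without Ctrl replicate 2 (adjusted p = 0.0627, edgeR). Nupr1, a stress-induced chromatin protein, was the 1 member of 14 that fell, beside these 3 that rose (median 0.12), and the rises numbered 1 without Ctrl replicate 2 and 2 without Ctrl replicate 1.

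Several of the largest rises belong to none of these pathways. Slc43a2, a transporter of branched-chain amino acids and phenylalanine (chromosome 11, 75531694 to 75577575), had 445 and 687 CPM in DI and 38.6 and 35.8 CPM in Ctrl, a log2 fold change of 3.93 ± 0.33 (SE; adjusted p = 2.25e-08, edgeR). Jade1, a subunit of a histone acetyltransferase complex, had 57.1 and 54.9 CPM in DI and 5 and 3.4 CPM in Ctrl. The groups were far apart for both of these genes, whose choice required that they not overlap. Acss2, which makes acetyl-CoA from acetate, had 23.7 and 17 CPM in DI and 0.556 and 0.453 CPM in Ctrl, where both libraries were under the floor. Serpinb9b, a serine protease inhibitor, had 119 and 49.6 CPM in DI and 3.33 and 4.08 CPM in Ctrl, and Slc22a4, an organic cation transporter, had 29 and 34.2 CPM in DI and 3.89 and 2.94 CPM in Ctrl. Layn, a hyaluronan receptor, was high in DI replicate 2 above all. It had 13.2 and 83.8 CPM in DI and 1.95 and 3.85 CPM in Ctrl, and without that library its adjusted p was 0.112 (edgeR).

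**Figure D2:**
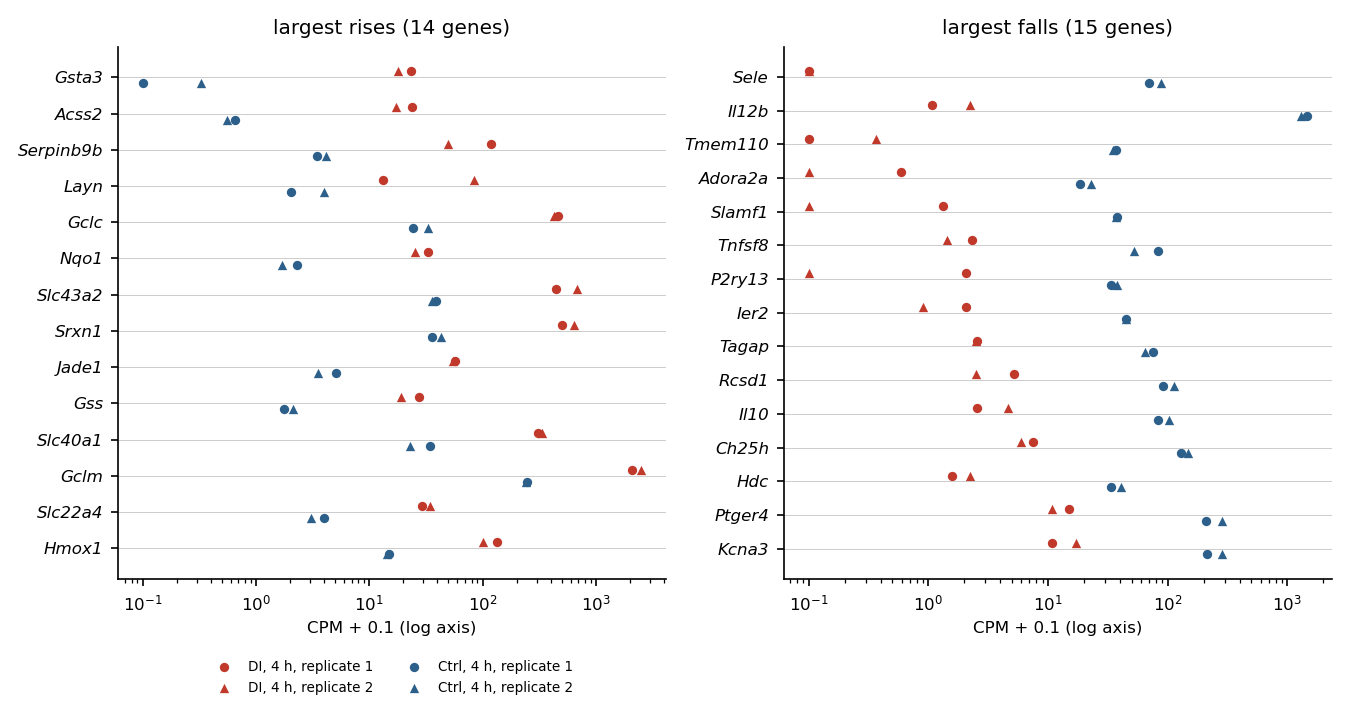
Levels of 14 of the 15 genes with the largest rise (left) and the 15 with the largest fall (right) among called genes whose higher group averaged at least 20 CPM, in each DI (red) and Ctrl (blue) library at 4 h, as CPM + 0.1 on a log axis, with circles for replicate 1 and triangles for replicate 2. The groups do not overlap for any of the 29 genes drawn, which the choice of genes required, and several falls reach 0 reads in DI.

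Sele, Il12b, Il10 and Tnfsf8 were among the 15 largest falls. Sele, the adhesion molecule E-selectin, lies on chromosome 1 at 164048234 to 164057677. It had no read in either DI library, against 70.02 and 88.1 CPM in the Ctrl libraries. As a ratio, the lower Ctrl library was 88.1 times the higher DI floor of 3 counts (counting error only). The floor counts reads and not molecules, so this ratio is not a bound on the fall in molecules. Il12b, which encodes the p40 chain of interleukins 12 and 23, had 0.976 and 2.12 CPM in DI and 1459.7 and 1287 CPM in Ctrl. Il10, an anti-inflammatory cytokine, had 2.44 and 4.51 CPM in DI and 82.8 and 103 CPM in Ctrl. Tnfsf8, the ligand of CD30, had 2.2 and 1.33 CPM in DI and 82.8 and 52.3 CPM in Ctrl. Sele was under the floor in DI, and the others were above it, with Il10 highest at 4.51 CPM in DI replicate 2. The Ctrl libraries were far above the floor for all 4 genes.

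The other large falls were of genes with varied roles. Adora2a, a receptor for adenosine, had 2 reads over the DI libraries and 167 over the Ctrl libraries, a Ctrl over DI ratio of 82.0 (95% exact interval 22.3 to 683, counting error only). Ptger4, the prostaglandin E2 receptor EP4, had 14.9 and 10.6 CPM in DI and 207 and 283 CPM in Ctrl, a log2 fold change of -4.26 ± 0.42 (SE; adjusted p = 2.62e-07, edgeR). The ADP receptor P2ry13 had 1.95 and 0 CPM in DI and 33.6 and 37.6 CPM in Ctrl. All 3 of these receptor genes were lower in both DI libraries, as the choice of the largest changes required. The potassium channel gene Kcna3 had 10.7 and 17 CPM in DI and 212 and 286 CPM in Ctrl. Slamf1, a self-ligand receptor of immune cells, had 1.22 and 0 CPM in DI and 37.2 and 37.1 CPM in Ctrl. Tmem110, a membrane protein of calcium signalling, had 1 read over the DI libraries and 286 over the Ctrl libraries. Its Ctrl over DI ratio was 281 (95% exact interval 50.01 to 11132, counting error only). Both of these genes were almost without reads in DI. Tagap, a GTPase-activating protein, had 2.44 and 2.39 CPM in DI and 75.6 and 64.1 CPM in Ctrl. Rcsd1, whose product binds an actin-capping protein, had 5.12 and 2.39 CPM in DI and 91.4 and 114 CPM in Ctrl. Hdc, which makes histamine, had 1.46 and 2.12 CPM in DI and 33.3 and 40.5 CPM in Ctrl.

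Of 17 tested receptors and adaptors of LPS and IFNg, 3 were called lower and none higher, with a median of -0.24, beside 6.0% called lower over all genes tested. Cd14, the LPS co-receptor, had 51.7 and 20.7 CPM in DI and 194 and 182 CPM in Ctrl (log2 fold change -2.38 ± 0.39, SE; adjusted p = 0.000181, edgeR). Ly96, which pairs with TLR4, was called lower with 69.3 and 31.5 CPM in DI and 125 and 144 CPM in Ctrl, and not without either Ctrl library or DI replicate 2 (largest adjusted p = 0.276, edgeR). The kinase gene Jak2 was called lower with 150.3 and 121 CPM in DI and 384 and 299 CPM in Ctrl, and not without Ctrl replicate 1 or DI replicate 2 (largest adjusted p = 0.141, edgeR). Of the list 1 of 17 passed without Ctrl replicate 1 or DI replicate 2 and 2 without Ctrl replicate 2. Tlr4 did not pass, at 51 and 60.2 CPM in DI and 31.4 and 30.8 CPM in Ctrl.

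Called NF-kB genes were all lower in DI, beside 6.0% called lower and 3.43% higher over all genes tested. Among subunits and inhibitors 8 of 19 fell and none rose (median -0.72), 5 without Ctrl replicate 1 or Ctrl replicate 2 and 4 without DI replicate 2. Rel, the subunit c-Rel, had 442 and 437 CPM in DI and 1336 and 1009.98 CPM in Ctrl (log2 fold change -1.42 ± 0.26, SE). Nfkbiz had 212 and 208 CPM in DI and 953 and 978 CPM in Ctrl, and Tnip3, which restrains NF-kB together with A20, had 411 and 491 CPM in DI and 1272 and 1669 CPM in Ctrl. Birc2, a ubiquitin ligase of the TNF receptor complex, had 55.1 and 46.1 CPM in DI and 175 and 165 CPM in Ctrl. These genes did not overlap between the groups, which was so for 1005 of the 1006 called genes. Nfkb1, the p105 precursor, did not pass, at 557 and 718 CPM in DI and 757 and 866 CPM in Ctrl (adjusted p = 0.441, edgeR). Nfkbia, the inhibitor IkB alpha, did not pass either, at 5315 and 4426 CPM in DI and 8832 and 8090.3 CPM in Ctrl (adjusted p = 0.0553, edgeR). Tnfaip3, which encodes A20, had 444 and 175 CPM in DI and 449 and 532 CPM in Ctrl, and passed without DI replicate 1 (adjusted p = 0.0117, edgeR) but with no other library left out.

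Immediate-early transcription factors moved both ways, 4 higher and 5 lower among 20 tested (median -0.61). The shares over all genes tested were 3.43% higher and 6.0% lower. Ier2, a small nuclear protein, had 1.95 and 0.795 CPM in DI and 44.5 and 44.4 CPM in Ctrl, and the AP-1 subunit Jun had 82.7 and 82.7 CPM in DI and 230.1 and 234 CPM in Ctrl. Its partner Fos went the other way, with 78.1 and 124 CPM in DI and 20.6 and 17.4 CPM in Ctrl (log2 fold change 2.41 ± 0.49, SE; adjusted p = 0.00179, edgeR). Fosl1 (Fra-1) had 94 reads over the DI libraries and 3 over the Ctrl libraries, a ratio of 31.9 (95% exact interval 10.6 to 157, counting error only). Cebpb, a driver of acute-phase and cytokine genes, had 2207 and 1905 CPM in DI and 578 and 921 CPM in Ctrl. The calls of Fos and Fosl1 were lost without Ctrl replicate 2 (adjusted p = 0.0534 and 0.0563, edgeR) and that of Cebpb without Ctrl replicate 1 (adjusted p = 0.0758, edgeR). With 1 library left out between 1 and 4 members passed as higher and between 2 and 4 as lower, the fewest in both directions without Ctrl replicate 2. Atf3, an early factor that takes part in the stress response, had 681 and 713 CPM in DI and 596 and 535 CPM in Ctrl and did not pass.

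The dual-specificity phosphatases, which switch off MAP kinases, were divided by member, beside 3.43% called higher and 6.0% lower over all genes tested. Dusp2 had 31.2 and 14.6 CPM in DI and 335 and 397 CPM in Ctrl, a log2 fold change of -3.99 ± 0.53 (SE; adjusted p = 1.54e-05, edgeR). Dusp4, which acts on ERK in the nucleus, rose, with 49 and 53.3 CPM in DI and 8.06 and 15.9 CPM in Ctrl. Dusp6, which acts on ERK in the cytoplasm, rose as well, with 26.8 and 80.1 CPM in DI and 10.6 and 9.06 CPM in Ctrl. Among 19 tested phosphatases, SOCS proteins and mRNA decay factors 3 rose and 6 fell (median -0.30), and the falls numbered 3 without Ctrl replicate 1, 1 without Ctrl replicate 2 or DI replicate 1 and 2 without DI replicate 2. Socs3, a brake on cytokine receptors, was called lower at 229 and 334 CPM in DI and 708 and 582 CPM in Ctrl, but not with any 1 library left out (largest adjusted p = 0.212, edgeR). Zfp36l2, an mRNA decay factor, was called higher with 142 and 161 CPM in DI and 58.1 and 43.5 CPM in Ctrl, and not without Ctrl replicate 2 (adjusted p = 0.0635, edgeR).

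Most cytokine genes were lower in DI. Of 26 tested 16 fell and 1 rose, and with 1 library left out 13 to 15 fell. The list's median log2 fold change was -2.16, and over all genes tested 6.0% were called lower and 3.43% higher. Il27, one chain of interleukin 27, had 454 and 290.3 CPM in DI and 1617 and 1597 CPM in Ctrl. Ebi3, its other chain, had 32 and 30.7 CPM in DI and 228 and 237 CPM in Ctrl. Il1a had 239 and 202 CPM in DI and 1015 and 1037 CPM in Ctrl. Both chains and Il1a were thus several-fold lower in DI. Il1b, the secreted form of interleukin 1, had 137 and 93.6 CPM in DI and 729 and 634 CPM in Ctrl. Il6, a pyrogenic cytokine, had 24.6 and 27 CPM in DI and 347 and 439 CPM in Ctrl, a log2 fold change of -3.93 ± 0.40 (SE; adjusted p = 4.19e-07, edgeR). Both DI libraries lay below both Ctrl libraries for all 5 genes, and 1005 of the 1006 called genes did not overlap between groups. Csf1, the growth factor of macrophages, had 114 and 78.5 CPM in DI and 412 and 416 CPM in Ctrl, and Il15, which supports natural killer and memory T cells, had 356 and 431 CPM in DI and 935 and 871 CPM in Ctrl. The T cell ligand Tnfsf9 (4-1BB ligand) had 12 and 14.3 CPM in DI and 103 and 116 CPM in Ctrl, and Tnfsf15 (TL1A) had 171 and 185 CPM in DI and 677 and 773 CPM in Ctrl. Il12a, the p35 chain of interleukin 12, had no read in DI and 13.3 and 9.96 CPM in Ctrl. Its lower Ctrl library was 12.5 times the higher DI floor of 3 counts (counting error only). The call of Il12a was lost whichever library was left out. The 1 rise was that of Gdf15, a stress-induced member of the TGF-beta family, with 312 and 202 CPM in DI and 39.7 and 61.1 CPM in Ctrl. Tnf did not pass, at 1524 and 978 CPM in DI and 1340.5 and 1433 CPM in Ctrl, and neither did Il1rn, the interleukin 1 receptor antagonist, at 1892 and 1451 CPM in DI and 1868 and 2092 CPM in Ctrl. The group of genes known to need IkBz overlaps with this list, and 7 of its 9 tested members fell.

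Chemokine genes also fell where they changed, with 1 exception, beside 6.0% called lower and 3.43% higher over all genes tested. Of 18 tested 11 fell and 1 rose (median -1.24), with 6 falls without Ctrl replicate 2 or DI replicate 2 and 8 without Ctrl replicate 1 or DI replicate 1. Ccl12, a ligand of CCR2, had 212 and 190.3 CPM in DI and 915 and 1051 CPM in Ctrl. Ccl7, another ligand of CCR2, had 503 and 449.8 CPM in DI and 1467 and 1654 CPM in Ctrl. Ccl8, Ccl6 and Ccl22 also fell, with log2 fold changes of -2.14 ± 0.37, -1.46 ± 0.28 and -3.60 ± 0.73 (SE). The exception was the neutrophil attractant Cxcl3, at 87.6 and 85.4 CPM in DI and 32.8 and 29.2 CPM in Ctrl, which lost its call whichever library was left out (largest adjusted p = 0.193, edgeR). Cxcl1 did not pass, with 152 and 131 CPM in DI and 179.5 and 142 CPM in Ctrl, and neither did Cxcl2, with 3809.9 and 4109 CPM in DI and 4022 and 2983 CPM in Ctrl. Cxcl10, which attracts T cells, did not pass either, at 9586 and 7186 CPM in DI and 10474 and 12118 CPM in Ctrl (adjusted p = 0.307, edgeR). Ccl2 and Ccl5 were called lower, with log2 fold changes of -1.41 ± 0.29 and -0.92 ± 0.26 (SE), but neither was called without Ctrl replicate 2 or without DI replicate 2, nor Ccl5 without Ctrl replicate 1 (largest adjusted p = 0.0821 and 0.22, edgeR).

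Effectors of activated macrophages were lower in part, beside 6.0% called lower and 3.43% higher over all genes tested. Of 31 tested 12 fell and 1 rose (median -0.77), with 7 to 10 falls when 1 library was left out, the fewest without DI replicate 2. Mmp13, a secreted collagenase, had 1037 and 891 CPM in DI and 4891 and 5549.9 CPM in Ctrl. Mmp14, a membrane-bound collagenase, had 27.1 and 26.2 CPM in DI and 349 and 401 CPM in Ctrl. Both genes lay far below Ctrl in both DI libraries. The co-stimulator Cd40 had 400.1 and 386 CPM in DI and 1481 and 1388 CPM in Ctrl, and the adhesion molecule Icam1 had 412 and 416 CPM in DI and 1056 and 1016 CPM in Ctrl. Clec4d, a lectin receptor for mycobacterial glycolipid, was the rise, at 1139.5 and 948 CPM in DI and 438 and 440.00 CPM in Ctrl. Acod1 did not pass, with 31195 and 23812 CPM in DI and 15160.1 and 15836 CPM in Ctrl (adjusted p = 0.075, edgeR). Nos2, the inducible nitric oxide synthase, differed more between the DI libraries than between the groups, at 146 and 350.4 CPM in DI and 344 and 343 CPM in Ctrl. Ptgs2, which encodes cyclooxygenase 2, had 5682 and 3841 CPM in DI and 6886 and 8595 CPM in Ctrl and did not pass.

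Some type I interferon-stimulated genes were lower, with 12 of 39 lower, none higher and a median of -0.65, beside 6.0% called lower over all genes tested. With 1 library left out 6 to 9 passed, the fewest without DI replicate 2. Ch25h, which makes the antiviral oxysterol 25-hydroxycholesterol, fell furthest, with 7.32 and 5.83 CPM in DI and 128 and 148 CPM in Ctrl (log2 fold change -4.39 ± 0.51, SE; adjusted p = 3.5e-06, edgeR). Isg20, an exonuclease, had 333 and 248 CPM in DI and 1078 and 1616 CPM in Ctrl. Usp18, which removes ISG15 from proteins, had 223 and 272 CPM in DI and 896 and 703 CPM in Ctrl. Isg15 itself had 221 and 155 CPM in DI and 612 and 595 CPM in Ctrl, and its call was lost without DI replicate 2 (adjusted p = 0.0729, edgeR). Ifit3b had 40.01 and 36.6 CPM in DI and 113 and 114 CPM in Ctrl, and may share reads with its near-identical neighbour Ifit3. The antiviral gene Rsad2 (viperin) did not pass, at 29534 and 31496 CPM in DI and 32890.5 and 44614 CPM in Ctrl.

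Promoters of Ifit3b and Isg15 are shown because they are the first 2 genes, by p, among these 12 whose 250 bases before the start hold the letters of the interferon-stimulated response element (ISRE), which are GAAA, 2 bases of any kind and GAAA, on either strand and in capitals. They were chosen after their values were seen. Ifit3b is at chr19:34607707-34607956 on the plus strand and Isg15 at chr4:156200819-156201068 on the minus strand (RefSeq, GRCm38.p6), both written in the direction of transcription.
Ifit3b: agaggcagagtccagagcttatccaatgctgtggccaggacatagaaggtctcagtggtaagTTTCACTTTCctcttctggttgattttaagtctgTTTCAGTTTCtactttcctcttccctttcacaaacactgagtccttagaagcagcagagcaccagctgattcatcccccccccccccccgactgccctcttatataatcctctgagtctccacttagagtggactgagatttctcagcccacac
Isg15: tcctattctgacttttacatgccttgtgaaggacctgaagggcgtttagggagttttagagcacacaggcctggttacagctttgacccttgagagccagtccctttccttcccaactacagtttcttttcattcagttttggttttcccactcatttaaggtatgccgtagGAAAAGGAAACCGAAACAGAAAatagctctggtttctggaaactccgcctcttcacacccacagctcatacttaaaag
Ifit3b holds 2 matches and Isg15 3 that overlap each other. Of the 12 genes 8 had a promoter in the table and 4 of these held the letters. Over all calls, 7.63% of 511 promoters of genes called lower and 1.34% of 299 of genes called higher held them, beside 3.49% of those of all tested genes. For the other letters the shares in genes called higher, called lower and all tested were 5.69%, 7.83% and 4.998% for AP-1 (TGANTCA), 7.36%, 8.02% and 6.42% for the kB site (GGG, 3 bases of any kind and TTCC) and 11.7%, 7.05% and 8.33% for C/EBP (TTGCNNAA). ARE and AP-1 letters can overlap in 1 stretch of sequence.

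Of 24 GTPases and regulators of the IFNg response 2 were called lower and none higher (median -0.23), beside 6.0% called lower over all genes tested. Irf8, a lineage factor of macrophages, had 4122 and 4481 CPM in DI and 9711 and 12757 CPM in Ctrl. The T cell chemokine Cxcl9 had 2667 and 2709.8 CPM in DI and 6469 and 5609 CPM in Ctrl. Irf8 lost its call without Ctrl replicate 2 (adjusted p = 0.0816, edgeR) and Cxcl9 whichever library was left out (largest adjusted p = 0.15, edgeR), so that 0 of 24 passed without Ctrl replicate 2 and 1 in the other 3 cases. Irf1 did not pass, at 2271 and 2627 CPM in DI and 2584 and 2623 CPM in Ctrl, nor did the GTPase Iigp1, at 4699 and 5198 CPM in DI and 5043 and 5751 CPM in Ctrl. In MHC class I presentation 2 of 18 were called lower (median -0.23), B2m and H2-M3. B2m, the light chain of class I molecules, had 1 Ctrl library far above the other 3, with 6574 and 4456 CPM in DI and 7826 and 26342 CPM in Ctrl, and its adjusted p was 0.499 (edgeR) without that library, Ctrl replicate 2. H2-M3 lost its call whichever library was left out, and 0 of 18 passed without Ctrl replicate 2 or DI replicate 2. In MHC class II presentation 2 of 8 were called lower (median -0.84), H2-Eb1 and the invariant chain Cd74, and neither passed without Ctrl replicate 2 or DI replicate 2. H2 genes are similar in sequence, and reads shared between them could have been lost or split in the counting.

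**Figure D3:**
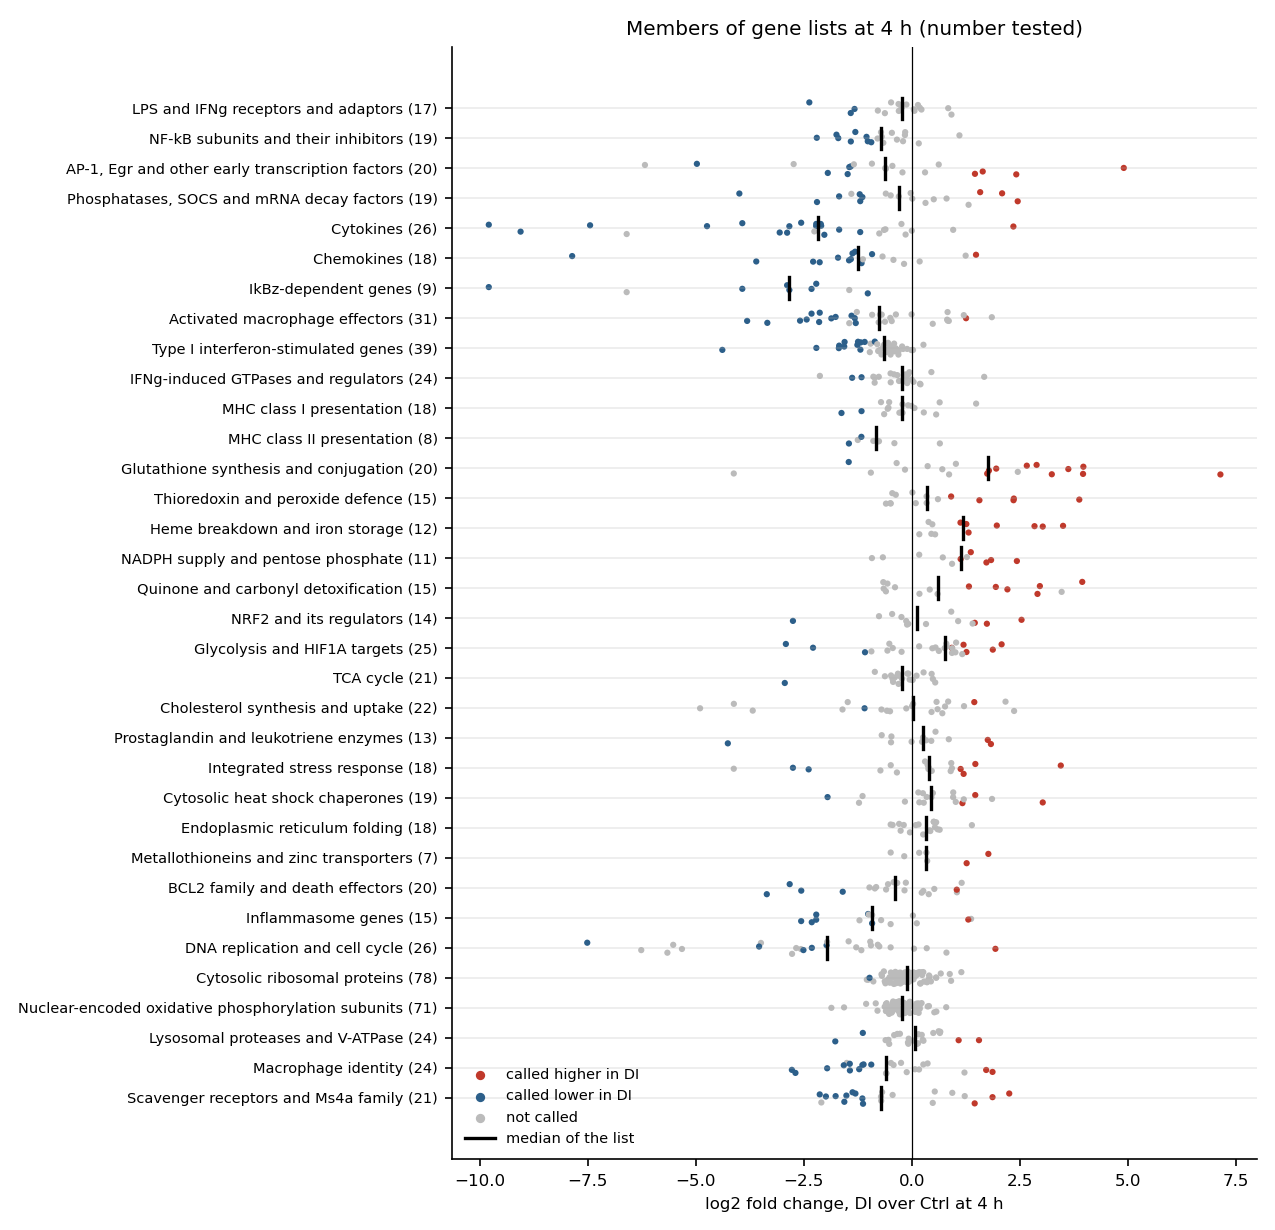
Log2 fold change of DI over Ctrl at 4 h (x axis) for the members of each gene list (1 row a list, number tested in brackets), with members called higher in red, called lower in blue and not called in grey, and a bar at the median. The lists of glutathione, heme and NADPH genes have medians above 1, and those of cytokines, chemokines and IkBz-dependent genes have medians below -1.

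In glycolysis and HIF1A targets 5 of 25 rose and 3 fell (median 0.76), beside 3.43% called higher and 6.0% called lower over all genes tested. Slc2a6, a lysosomal hexose transporter, fell, with 22 and 22.8 CPM in DI and 142 and 196 CPM in Ctrl. Pfkfb3, whose product activates glycolysis, fell as well, with 22.4 and 8.22 CPM in DI and 67 and 83.6 CPM in Ctrl. The glucose transporter Slc2a1 had 178 and 165 CPM in DI and 85 and 65.4 CPM in Ctrl and lost its call without Ctrl replicate 2 (adjusted p = 0.169, edgeR). The rises numbered 0 without Ctrl replicate 2, 2 without Ctrl replicate 1 or DI replicate 2 and 8 without DI replicate 1. In the TCA cycle 1 of 21 was called (median -0.23), the fumarase gene Fh1 at 1.46 and 0 CPM in DI and 6.67 and 5.21 CPM in Ctrl. No gene of the cycle passed without either Ctrl library or DI replicate 2. Of 78 ribosomal protein genes 1 was called, Rps9, which was lower and not called without either Ctrl library or DI replicate 2 (largest adjusted p = 0.188, edgeR), and the list's median was -0.12. Of 71 subunits of oxidative phosphorylation 0 passed in the fit reported (median -0.23). Without a low-count filter 1 was called lower, and 1 was under DESeq2. In cholesterol synthesis and uptake 1 of 22 was called higher and 1 lower (Insig1), with a median of 0.01, and neither was called without Ctrl replicate 1, Ctrl replicate 2 or DI replicate 2. Among genes of prostaglandins and related lipids, Pla2g7, which inactivates platelet-activating factor, rose to 778 and 558 CPM in DI, against 204 and 192 CPM in Ctrl, beside the fall of Ptger4. That list had 2 of 13 higher and 1 lower (median 0.26), and 1 was higher without either Ctrl library or DI replicate 1.

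In the integrated stress response 4 of 18 rose and 2 fell (median 0.38), beside 3.43% called higher and 6.0% called lower over all genes tested, and 1 rise was left without Ctrl replicate 2 or DI replicate 2 and 2 without Ctrl replicate 1. Trib3, a pseudokinase downstream of ATF4, had 12.4 and 6.89 CPM in DI and 0.834 and 0.906 CPM in Ctrl. Atf4, the central factor of this response, did not pass, at 279 and 282 CPM in DI and 206 and 231 CPM in Ctrl. Cytosolic heat shock genes had 3 of 19 higher, 1 of them Hmox1, and 1 lower (median 0.45), with 1 higher without either Ctrl library and 2 without either DI library. Hspa1a, the inducible Hsp70, did not pass, with 3.66 and 0 CPM in DI and 2.78 and 5.43 CPM in Ctrl. No gene of 18 for folding in the endoplasmic reticulum passed in the fit reported (median 0.33), and 1 was called higher without a low-count filter. Slc30a1, a zinc exporter, had 62.5 and 82.7 CPM in DI and 21.1 and 21.5 CPM in Ctrl, and the metallothioneins Mt1 and Mt2 did not pass.

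In cell death and proliferation a few genes fell by much, beside 6.0% called lower and 3.43% called higher over all genes tested. The 3 survival genes Bcl2a1a, Bcl2a1b and Bcl2a1d fell, with log2 fold changes of -3.36 ± 0.61, -2.56 ± 0.36 and -2.83 ± 0.55 (SE), but they are near-identical copies whose reads the counting could have split, so they are not 3 independent measurements. The list had 4 of 20 lower and 1 higher (median -0.38), and 0 were higher with any 1 library left out. Among inflammasome genes 6 of 15 fell and 1 rose (median -0.92). The adaptor gene Pycard (ASC) had 34.9 and 28.9 CPM in DI and 146 and 173 CPM in Ctrl. The falls numbered 4 without DI replicate 2 or either Ctrl library. Ccnd2, a G1 cyclin, had 364 and 403 CPM in DI and 4302 and 4600.4 CPM in Ctrl, a log2 fold change of -3.54 ± 0.27 (SE; adjusted p = 9.92e-09, edgeR). At 0 h Ccnd2 was already lower, with 58.1 and 78.1 CPM in DI and 412 and 480 CPM in Ctrl. Its paralog Ccnd1 did not pass, at 983 and 913 CPM in DI and 727 and 1110.3 CPM in Ctrl. The proliferation marker Mki67 had 4.88 and 7.42 CPM in DI and 39.2 and 31 CPM in Ctrl. The replication factor Mcm5 had no read in DI and 3.89 and 4.08 CPM in Ctrl. Its lower Ctrl library was 4.89 times the higher DI floor of 3 counts (counting error only). Of 26 tested genes of replication and the cell cycle 5 fell and 1 rose, and 3 fell without Ctrl replicate 2 or DI replicate 1 and none rose without Ctrl replicate 1. The list's median was -1.97, and 20 of the 26 were not called. Dropping weakly expressed genes with a 5 CPM limit left 21 members, with a median of -1.28. With counts divided by the estimate of reads per molecule, 17 members were left and the median was -1.01. The size of the median thus depended on members with few reads.

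Macrophage markers were present in all 4 libraries, as the label of the cells requires. Their summed level over 24 genes was 10205 and 9008 CPM in DI and 13440 and 12070 CPM in Ctrl. Lyz2, the lysozyme of myeloid cells, did not pass the test, with 1202 and 1255 CPM in DI and 1562 and 1369 CPM in Ctrl. Csf1r, the receptor of m-CSF, did not pass, with 214 and 248 CPM in DI and 206 and 207 CPM in Ctrl. Within the list 10 of 24 fell and 2 rose (median -0.60), with 5 falls without Ctrl replicate 1 or DI replicate 2 and 6 without Ctrl replicate 2. Ccr2, the receptor of monocyte chemokines, had 38.3 and 40.03 CPM in DI and 256 and 281 CPM in Ctrl, a log2 fold change of -2.78 ± 0.27 (SE; adjusted p = 1.65e-07, edgeR). At 0 h Ccr2 was already lower, with 82.2 and 109 CPM in DI and 417 and 429 CPM in Ctrl. The scavenger receptor Cd36 rose, with 2727 and 1133 CPM in DI and 535 and 527 CPM in Ctrl, a call lost without DI replicate 1 (adjusted p = 0.0504, edgeR). In the scavenger and Ms4a list 9 of 21 fell and 3 rose (median -0.72), with 5 falls without Ctrl replicate 1 or DI replicate 2 and 6 without Ctrl replicate 2. Ms4a4c fell, at 277 and 203 CPM in DI and 975 and 936 CPM in Ctrl, and Clec4n (dectin-2) rose, at 136 and 119.8 CPM in DI and 23.9 and 29.9 CPM in Ctrl. The lysosomal protease Ctsc fell, at 568 and 441 CPM in DI and 1642 and 1809 CPM in Ctrl. Beside 6.0% called lower and 3.43% called higher over all genes tested, it was 1 of 2 falls, with 2 rises, among 24 lysosomal genes (median 0.07). Of these, none rose and 1 fell without Ctrl replicate 1, and 1 rose and 1 fell without Ctrl replicate 2.

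Markers of other cell types were low, with exceptions that moved between the groups. The 12 neutrophil markers summed to 585 and 438 CPM in DI and 503 and 395 CPM in Ctrl, led by S100a9, which monocytes also express. The 8 dendritic cell markers summed to 148 and 97.0 CPM in DI and 204 and 189 CPM in Ctrl, led by the interferon-inducible Bst2, and the 8 stromal markers to 39.1 and 24.4 CPM in DI and 63.7 and 69.1 CPM in Ctrl. Endothelial markers summed to 18.8 and 16.6 CPM in DI and 151 and 156 CPM in Ctrl, nearly all from Kdr, a VEGF receptor, which had 19 and 19.1 CPM in DI and 185 and 206 CPM in Ctrl. The endothelial marker Pecam1 had 2.68 and 0 CPM in DI and 3.06 and 6.34 CPM in Ctrl. T and NK cell markers summed to 2.96 and 0.230 CPM in DI and 18.2 and 14.4 CPM in Ctrl, led by the kinase gene Lck. Lck had no read in DI and 19.2 and 17.7 CPM in Ctrl, the lower of which was 22.2 times the higher DI floor (counting error only). Of these markers 6 of 11, among them Cd3e, Cd8b1 and Ncr1, were at 0 in all 4 libraries. B cell and mast cell markers summed to under 10 CPM in each library and the 7 erythroid markers to 0. The summed levels are scaled to library totals without TMM factors. Their part in the falls of other genes was not tested.

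Genes that LPS and IFNg induce were called lower in DI in a larger share than the 6.0% over all genes tested. Classes were set from Ctrl libraries at 0, 1 and 6 h, whose levels do not enter the fold change at 4 h although the same fit takes its spread from all 20 libraries, with an adjusted p under 0.05 and at least a 1 log2 unit change. Of 380 genes induced at 1 h (early), 134 were lower in DI at 4 h (35.3%) and 12 higher, and the class had a median of -0.71 on the log2 scale. Of 1180 genes induced at 6 h but not at 1 h (late), 286 were lower (24.2%) and 24 higher, with a median of -0.69. Genes that Ctrl cells repressed by 6 h leaned the other way: of 1116, 108 were higher in DI (9.68%) and 21 lower, with a median of 0.33. The remaining 7987 genes had 222 higher and 199 lower and a median of -0.01. With class limits of 2 on the log2 scale the share lower was 39.4% of 213 early and 34.0% of 564 late genes, and the share higher 9.87% of 547 repressed genes, and the remaining 9339 genes then held 349 of the falls.

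**Figure D4:**
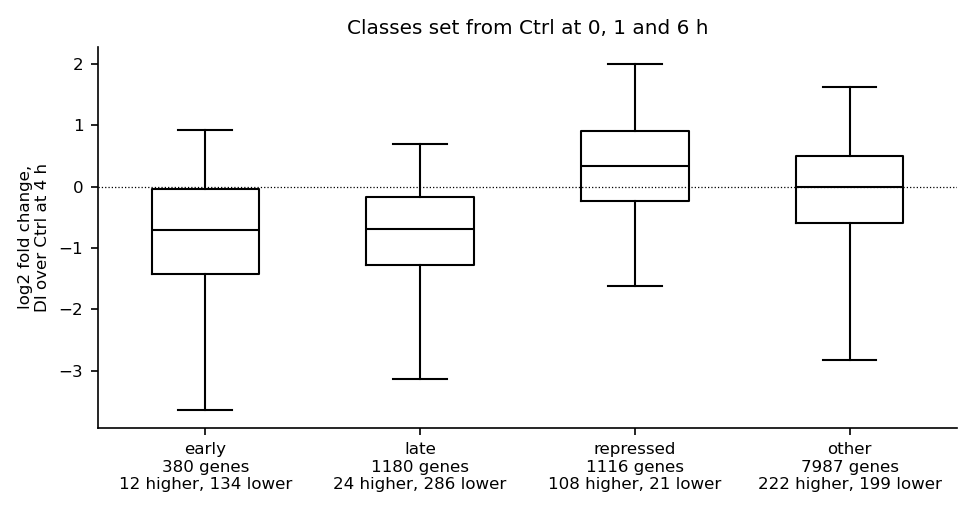
Log2 fold change of DI over Ctrl at 4 h (y axis) in classes of genes set from Ctrl libraries at 0, 1 and 6 h (x axis), as boxes from the first to the last quartile with the median as a line and whiskers from the lowest to the highest 5% of genes. Early and late induced genes have medians of -0.71 and -0.69, repressed genes one of 0.33 and the other genes one of -0.01.

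The effect of DI at 4 h was set against its effect at the other times within the same model, each effect against its own Ctrl libraries. It differed from that at 0 h for 81 genes (0.76% of those tested), from that at 1 h for 49 (0.46%), from that at 2 h for 15 (0.141%) and from that at 6 h for 3 (0.0281%). The counts depended on single libraries: without DI_4h replicate 1 they were 141, 98, 139 and 39, and without Ctrl_4h replicate 2 they were 39, 6, 3 and 2. A difference named here kept its call with any 1 of the 8 libraries it rests on left out, unless said otherwise. At an unadjusted p under 0.05 the numbers were 1082, 992, 1209 and 935. In the single contrasts at those times, DI was higher for 153 genes (1.43%) and lower for 231 (2.17%) at 0 h, higher for 198 (1.86%) and lower for 323 (3.03%) at 1 h, higher for 242 (2.27%) and lower for 423 (3.97%) at 2 h, and higher for 559 (5.24%) and lower for 954 (8.95%) at 6 h.

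In a first pattern the level climbed after the stimulus in Ctrl and little or not in DI. Stat5a, a signal transducer of growth factor receptors, had 16.3 and 12.1 CPM in DI and 11.6 and 12.5 CPM in Ctrl at 0 h, and 24.9 and 16.4 CPM in DI and 294 and 404 CPM in Ctrl at 4 h. The effect at 4 h minus that at 0 h was -4.30 ± 0.49 (log2, SE; adjusted p = 2.95e-05, edgeR). Ikzf1, a zinc finger factor of blood cells, had 65.7 and 58 CPM in DI and 102 and 92.5 CPM in Ctrl at 0 h. At 4 h it had 119.5 and 96 CPM in DI and 878 and 1211 CPM in Ctrl, and its effect also differed from that at 1 h. Its difference from the effect at 2 h was lost with 5 of the 8 libraries left out in turn (largest adjusted p = 0.311, edgeR). Ebi3 and Mmp13 had log2 fold changes of DI over Ctrl of 0.04 and 0.63 at 0 h and of -2.89 and -2.44 at 4 h. Tmem110 was at 7.49 and 11.9 CPM in DI and 13.5 and 13.3 CPM in Ctrl at 2 h, before DI libraries at 4 h were near 0.

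In a second pattern the level dropped after the stimulus in Ctrl and less so or not in DI. Slc43a2 had 428 and 394 CPM in DI and 187 and 198 CPM in Ctrl at 2 h, and 445 and 687 CPM in DI and 38.6 and 35.8 CPM in Ctrl at 4 h, a difference of effects of 2.83 ± 0.42 (log2, SE; adjusted p = 0.0027, edgeR). Jade1 had 100.03 and 104 CPM in DI and 53.1 and 54.1 CPM in Ctrl at 0 h, and at 4 h the DI libraries were at 57.1 and 54.9 CPM and the Ctrl libraries at 5 and 3.4 CPM.

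In the third pattern a gap seen before 4 h was smaller or reversed at 4 h, or opened after it. Ext1, which extends heparan sulfate chains, had log2 fold changes of DI over Ctrl of 2.18 at 0 h and 1.80 at 1 h. At 4 h that of Ext1 was -0.94, a call lost with any 1 library left out. Fos at 1 h had 63.7 and 36.8 CPM in DI and 247 and 238 CPM in Ctrl, the Ctrl libraries being at their peak, while at 4 h it was the DI libraries that were higher, and the effects differed by 4.69 ± 0.68 (log2, SE; adjusted p = 0.00143, edgeR). Tnf at 1 h had 184 and 190.1 CPM in DI and 817 and 643 CPM in Ctrl, against the overlapping values at 4 h, and the effects differed by 1.81 ± 0.37 (adjusted p = 0.0232, edgeR), a call lost with 7 of the 8 libraries left out in turn (largest adjusted p = 0.153). For Il1b and Nos2 the log2 fold changes of DI over Ctrl were -4.99 and -3.69 at 1 h and -2.56 and -0.47 at 4 h, and these differences were lost with 5 and 7 of the 8 libraries left out in turn (largest adjusted p = 0.165 and 0.222, edgeR). Zfp36l1, an mRNA decay factor, had one of -3.30 at 0 h and of -1.21 at 4 h, where its call was lost without Ctrl replicate 2 or DI replicate 1 (largest adjusted p = 0.0916, edgeR), and the difference was lost with 3 of the 8 libraries left out in turn (largest adjusted p = 0.0872, edgeR). Cxcl2 had 5172 and 8709 CPM in DI and 795 and 847 CPM in Ctrl at 6 h, and its effect at 4 h minus that at 6 h was -2.90 ± 0.41 (adjusted p = 0.00175, edgeR). Cxcl1 had 299.6 and 281 CPM in DI and 13.2 and 32.9 CPM in Ctrl at 6 h, with a difference of effects of -3.83 ± 0.55. Slc16a10, a transporter of aromatic amino acids, was the third gene, with 98.6 and 81 CPM in DI and 13.6 and 14.6 CPM in Ctrl at 6 h, and its difference was lost with 6 of the 8 libraries left out in turn (largest adjusted p = 0.26, edgeR).

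**Figure D5:**
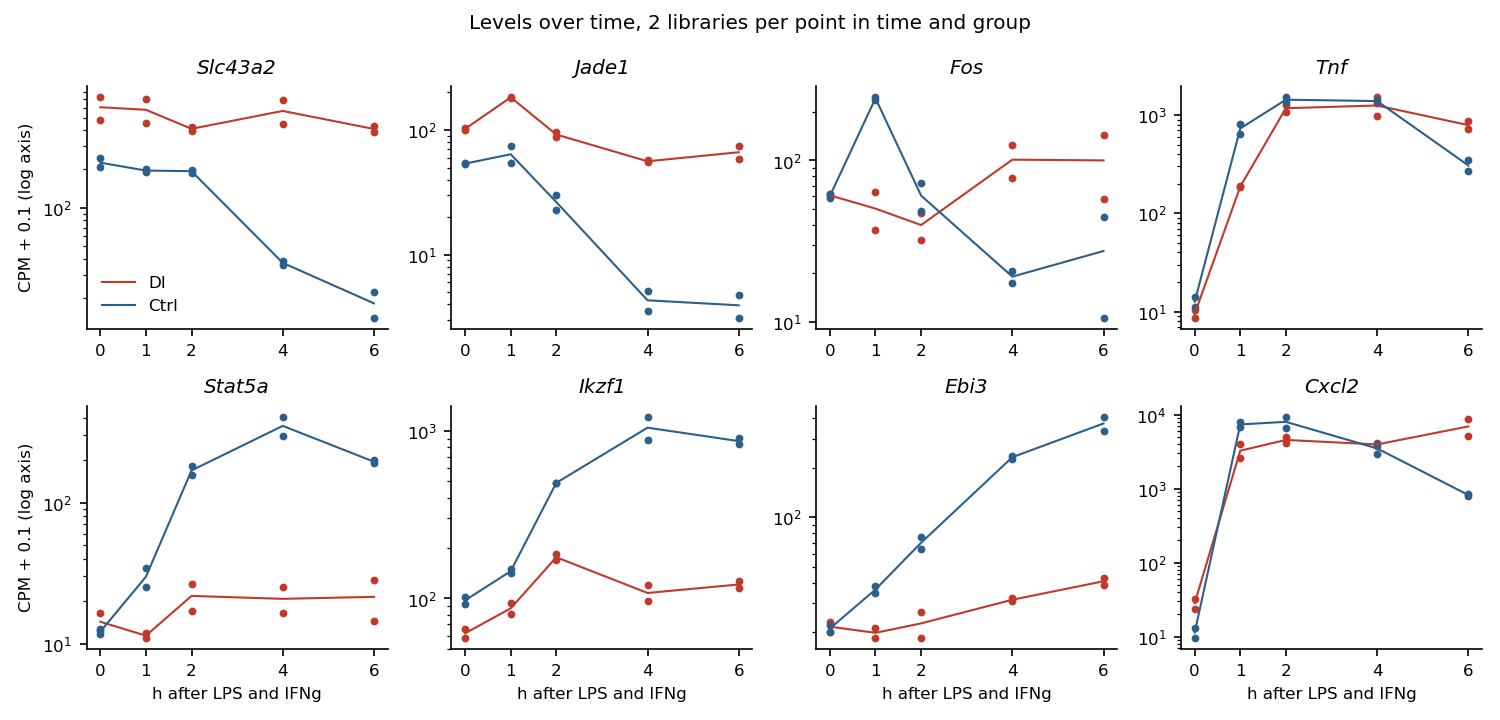
Levels of 8 genes whose effect of DI at 4 h differed from that at another time, by hours after LPS and IFNg (x axis) as CPM + 0.1 on a log axis, with each library as a point and the mean of the 2 as a line, DI in red and Ctrl in blue. Slc43a2 and Jade1 are lower at 4 h than at 0 h in Ctrl and less so in DI, Stat5a, Ikzf1 and Ebi3 climb in Ctrl and little in DI, and Fos, Tnf and Cxcl2 have gaps whose direction or size changes over time.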

How the data were processed

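RNA was measured in 20 libraries of 10 groups. Per the labels' protocols, poly(A) RNA was captured with oligo-dT beads and copied from a barcoded oligo-dT primer, so that reads come from transcript 3′ ends. Samples were pooled by Actb measured with qPCR, and the pool was amplified by 12 cycles of PCR into strand-specific libraries. STAR, HTSeq, DESeq2 and the mm10 build are named per the submitters' processing notes, with versions and options not given in the sources used here. The deposited values are raw counts per gene, with no normalization by the authors.

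Counts were tested in R 4.3.3 with edgeR 4.0.16 (filterByExpr by group, TMM factors, robust quasi-likelihood fit of 10 group means over 20 libraries, 10 residual degrees of freedom, Benjamini-Hochberg adjustment over the 10663 genes tested, threshold 0.05), and with limma 3.58.1 and DESeq2 1.42.0 as alternatives. Per-gene levels are CPM scaled by TMM. Reads per molecule were estimated from the genes at 0 in excess of those that counting alone gives. Expected reads were each gene's mean share over all 20 libraries, so differences in expression between groups also enter the estimate. Ratios for genes with 1 to 3 reads in a group have exact 95% intervals. These take each read as independent and leave out the spread between libraries, so they are too narrow. Symbols and positions are from GENCODE M21 (GRCm38), and promoters from RefSeq (GRCm38.p6). A promoter was searched over 250 bases before and 50 after the start, on both strands, for 5 motifs. Of the tested genes 8484 had one.

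Genes named were the 15 with the largest change per direction among called genes with no overlap of libraries whose higher group averaged at least 20 CPM, the 6 with the smallest p per difference of effects at that level, up to 5 called members per list by p with the 2 highest uncalled ones, and a fixed panel. Predicted genes were left out of the largest changes, and a few genes that the rule names are not reported here. Other list members named in the text were chosen after their values were seen. Lists and named genes were chosen with earlier results of these data known. Alternatives changed the scaling, the low-count filter, the test, the libraries in the fit, a replicate term and each single library.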

Additional observations from a re-analysis of the deposited data

Results flagged for a closer look

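The effect of DI at 4 h was set against its effect at another time for each gene named, and the genes given here had an adjusted p under 0.05 for that difference in edgeR's quasi-likelihood test. Values are the log2 fold change of DI over Ctrl at 4 h minus that at the other time, so a positive value means that DI stood higher against Ctrl at 4 h than at the other time.

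Against 0 h the effect at 4 h was more positive by a difference of 2.49 for Slc43a2, 2.82 for Jade1, 2.38 for Dusp6, 2.09 for Zfp36l1 and 2.43 for Iigp1. Against 0 h the effect at 4 h was more negative by a difference of -7.79 for Tmem110, -6.09 for Slamf1, -4.01 for Ier2, -2.50 for Ptger4 and -4.30 for Stat5a. In the same direction against 0 h the difference was -2.93 for Ebi3, -2.62 for Ikzf1, -3.07 for Mmp13, -2.80 for Stard7, -3.12 for Ext1 and -2.64 for Maml2. In the same direction against 0 h the difference was -2.27 for Tnfaip3, -2.10 for Slc7a11 and -3.09 for Dcn. Against 1 h the effect at 4 h was more positive by a difference of 2.36 for Slc43a2, 2.22 for Jade1, 4.69 for Fos, 1.81 for Tnf and 2.42 for Il1b. In the same direction against 1 h the difference was 3.22 for Nos2, 1.71 for Slc7a11 and 2.17 for Zfp36l1. Against 1 h the effect at 4 h was more negative by a difference of -7.39 for Tmem110, -3.13 for Ptger4, -2.69 for Stat5a, -2.01 for Ebi3, -2.54 for Ikzf1 and -3.66 for Stard7. In the same direction against 1 h the difference was -2.74 for Ext1, -2.11 for Fbrsl1 and -1.67 for Tnip3. Against 2 h the effect at 4 h was more positive by a difference of 2.83 for Slc43a2, 3.19 for Nfkbid and 2.03 for Setd1b. Against 2 h the effect at 4 h was more negative by a difference of -7.43 for Tmem110, -1.80 for Ikzf1, -2.93 for Fbrsl1, -2.88 for Maml2 and -2.06 for Jun. Against 6 h the effect at 4 h was more negative by a difference of -2.90 for Cxcl2, -3.83 for Cxcl1 and -2.43 for Slc16a10.

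These differences rest on 2 libraries a group, 8 libraries in all. Against 0 h the call held with each of these libraries left out for 9 of 19 genes, which were Ebi3, Stat5a, Tmem110, Ikzf1, Jade1, Slc43a2, Mmp13, Iigp1 and Ext1. It was lost with at least 1 left out for Slamf1 (largest adjusted p = 0.969), Tnfaip3 (largest adjusted p = 0.117), Dcn (largest adjusted p = 0.202), Dusp6 (largest adjusted p = 0.396), Zfp36l1 (largest adjusted p = 0.0872), Stard7 (largest adjusted p = 0.0667), Slc7a11 (largest adjusted p = 0.113), Maml2 (largest adjusted p = 0.0544), Ptger4 (largest adjusted p = 0.369) and Ier2 (largest adjusted p = 0.0615). Against 1 h the call held with each of these libraries left out for 5 of 17 genes, which were Tmem110, Ikzf1, Fos, Stard7 and Ext1. It was lost with at least 1 left out for Ebi3 (largest adjusted p = 0.144), Stat5a (largest adjusted p = 0.0963), Nos2 (largest adjusted p = 0.222), Zfp36l1 (largest adjusted p = 0.0988), Tnf (largest adjusted p = 0.153), Jade1 (largest adjusted p = 0.244), Il1b (largest adjusted p = 0.165), Slc7a11 (largest adjusted p = 0.263), Slc43a2 (largest adjusted p = 0.0861), Ptger4 (largest adjusted p = 0.0722), Fbrsl1 (largest adjusted p = 0.216) and Tnip3 (largest adjusted p = 0.21). Against 2 h the call held with each of these libraries left out for 2 of 8 genes, which were Tmem110 and Slc43a2. It was lost with at least 1 left out for Ikzf1 (largest adjusted p = 0.311), Maml2 (largest adjusted p = 0.134), Nfkbid (largest adjusted p = 0.185), Setd1b (largest adjusted p = 0.214), Fbrsl1 (largest adjusted p = 0.11) and Jun (largest adjusted p = 0.319). Against 6 h the call held with each of these libraries left out for 2 of 3 genes, which were Cxcl1 and Cxcl2. It was lost with at least 1 left out for Slc16a10 (largest adjusted p = 0.26). The fitted values of Tmem110 and Slamf1 depend on a small constant added to the counts, since DI libraries at 4 h held almost no reads of them.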

How the results depend on the processing

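At 4 h the count of 1006 genes lay between 818 and 1405 under 10 alternatives that kept all libraries of the comparison, and between 421 and 975 with 1 library left out. Scaling on genes of at least 32 CPM gave 999 calls, 888 of them among the 1006, with 47.7% of calls higher in DI, against 36.4% in the fit reported. No called gene named here changed sign under any alternative run. The alternatives reuse the same libraries and the genes were named for their call, so a change of sign was unlikely from the start. Of 157 called named genes 98 kept the call with each library left out and 130 under every other alternative. Of the 30 largest changes Layn was not called under limma-voom (adjusted p = 0.0811) and Ch25h not under limma-voom with quality weights by treatment (adjusted p = 0.0579).

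The counts of genes whose effect differed from that at 4 h depended more on the processing. Against 0 h, 81 became 183 without a low-count filter, 53 with quality weights, 217 with DESeq2, 39 with only the groups compared and 37 to 141 with 1 library left out. Against 1 h, 49 became 126, 23, 132, 22 and 6 to 98 under the same changes, and 31 under limma-voom. Against 2 h, 15 became 155, 2, 103, 3 and 2 to 139, and 5 under limma-voom and 23 under scaling on genes of at least 32 CPM. Against 6 h, 3 became 27 without the filter, 30 with DESeq2 and 2 to 39 with 1 library left out. The cause was not tested.

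Over all genes tested, replicate numbers showed little pairing: over 45 pairs of groups the correlation of same-numbered deviations ran from -0.143 to 0.113, and 2 exceeded 0.1. Library measures did go by number. In each of the 10 groups replicate 1 had the higher mitochondrial share (1.48% against 1.24% in DI at 4 h). At each time DI replicate 2 had the higher estimate of reads per molecule. Beyond this correlation and a replicate block in the fit, a batch shared by number was not tested. A replicate block gave 971 calls at 4 h, 953 of them among the 1006, and 5 genes against 2 h, where the fit reported gave 15.

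With 2 libraries a group, the spread rests on few libraries, and the more often a molecule was read the fewer molecules stand behind a low value, so absence at the floor of 3 counts is not shown for genes at 0 in DI.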
